A study of Mus musculus with 11 samples.

Results

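Oxidative phosphorylation is carried out by 5 protein complexes of the inner mitochondrial membrane, and their subunits are encoded by both the nuclear and the mitochondrial genome. The 104 genes described here were chosen by symbol and position among the 27179 genes of the deposited count table. They are 86 nuclear protein-coding subunits on 19 chromosomes, 5 nuclear pseudogenes that carry subunit names, and the 13 protein-coding genes of the mitochondrial chromosome. By complex, the nuclear subunits comprise 37 of complex I (NADH dehydrogenase), 4 of complex II (succinate dehydrogenase), 8 of complex III (the cytochrome bc1 complex), 20 of complex IV (cytochrome c oxidase) and 17 of complex V (ATP synthase). The mitochondrial genes supply 7 subunits of complex I, 1 of complex III, 3 of complex IV and 2 of complex V, and complex II has none.

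Complexes I and II pass electrons to ubiquinone, complex III passes them to cytochrome c and complex IV passes them to oxygen, and complexes I, III and IV move protons out of the matrix as they do so. Complex V lets the protons return and makes ATP. The mitochondrial subunits form much of the catalytic and proton-moving core, are transcribed within the organelle as long polycistronic RNAs that are cut into single mRNAs, and must be matched by subunits imported from the cytosol.

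RNA-seq was carried out on epithelial cells of the mammary glands of C57BL/6 females aged 5 weeks that carry an E-cadherin-GFP reporter. Terminal end buds (TEBs), the growing tips of the pubertal ductal tree, and the ducts behind them were micro-dissected, and basal cells (dim GFP) and luminal cells (bright GFP) were sorted from each. The 4 groups were basal duct (n = 3), basal TEB (n = 3), luminal duct (n = 2, replicates 1 and 3) and luminal TEB (n = 3), with at least 2 mice pooled for each replicate and no treatment. All groups share strain, age and reporter, and the labels distinguish them by structure and cell type. P-values measure the spread between these pools of mice. In bulk RNA, fewer cells that express a gene and less RNA per cell cannot be told apart.

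Libraries held from 27989137 to 49221436 counts, and 78 to 83 of the 86 nuclear subunits had at least 1 count in each. Levels are CPM, that is, counts relative to each TMM-scaled library size. The 8 basal markers summed to between 5509 and 20170 CPM in basal libraries and to between 15.2 and 266.5 CPM in luminal ones, and the 10 luminal markers to between 339 and 572 CPM and between 12910 and 19400 CPM, so both sorted populations carried the markers of their label. Luminal duct replicate 3 had more counts on markers of other cells than luminal duct replicate 1, with 192.6 against 0.569 CPM for 7 immune markers, 249.7 against 6.03 CPM for 6 fibroblast markers and 266.5 against 99.7 CPM for the basal markers. Basal duct replicate 2 had 175 CPM on 5 endothelial and 187 CPM on 6 adipocyte markers. It also had 84.25 CPM on the immune markers, against 17.02 and 12.8 CPM in basal duct replicates 1 and 3. On the fibroblast markers it had 839.6 CPM against 430.2 and 490.8 CPM. The fibroblast markers summed to 225.6 to 405.9 CPM in basal TEB and 11.7 to 53.1 CPM in luminal TEB. Groups were compared in edgeR (quasi-likelihood test), p-values were adjusted by Benjamini-Hochberg (FDR) over the 17370 genes that passed a filter on low counts, and a gene is said to be called where its FDR is below 0.05.

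The mitochondrial genome supplied a very unequal share of the libraries, and the 3 libraries with the highest share did not belong to 1 group. Counts on its 13 protein-coding genes made up 6.29%, 10.1% and 7.24% of all counts in basal duct replicates 1, 2 and 3. In basal TEB they made up 36.4%, 4.62% and 17.2%. In luminal duct the share was 8.16% in replicate 1 and 27.5% in replicate 3, and in luminal TEB it was 4.19%, 4.66% and 4.31%. The replicates of basal TEB and of luminal duct therefore spanned most of the range of the whole series, whereas those of luminal TEB lay close together. The part that immune, fibroblast or other cells play in these shares was not tested. Basal TEB replicate 1, with the highest share, had 3.46 CPM on the immune markers and no count for 4 of the 7. The same 4 had no count in basal duct replicate 1 and luminal duct replicate 1, both of lower share. Basal TEB replicate 3 had 4.51 CPM on the immune markers and no count for 5. Basal TEB replicate 2 had 16.2 CPM and luminal duct replicate 3 had 192.6 CPM. On the 6 fibroblast markers basal TEB replicates 1 and 3 had 226.9 and 225.6 CPM against 405.9 CPM in basal TEB replicate 2. On 5 skeletal muscle markers they had 8.37 and 30.6 CPM against 2.34 CPM, with luminal duct replicate 3 at 12.4 CPM. Total counts were lowest in basal TEB replicate 1 (27989137) and luminal duct replicate 3 (29522747), against at least 37191380 in the other libraries. Basal TEB replicate 3 had 38141115. Counts outside the mitochondrial chromosome were lowest in these 3, at 17496672, 21108817 and 31367761, but a high share lowers them by itself. Basal TEB replicate 1 and luminal duct replicate 3 also had the fewest genes with a count, 13302 and 14500 against at least 15617. The part of depth in these shares was not tested.

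**Figure D1:**
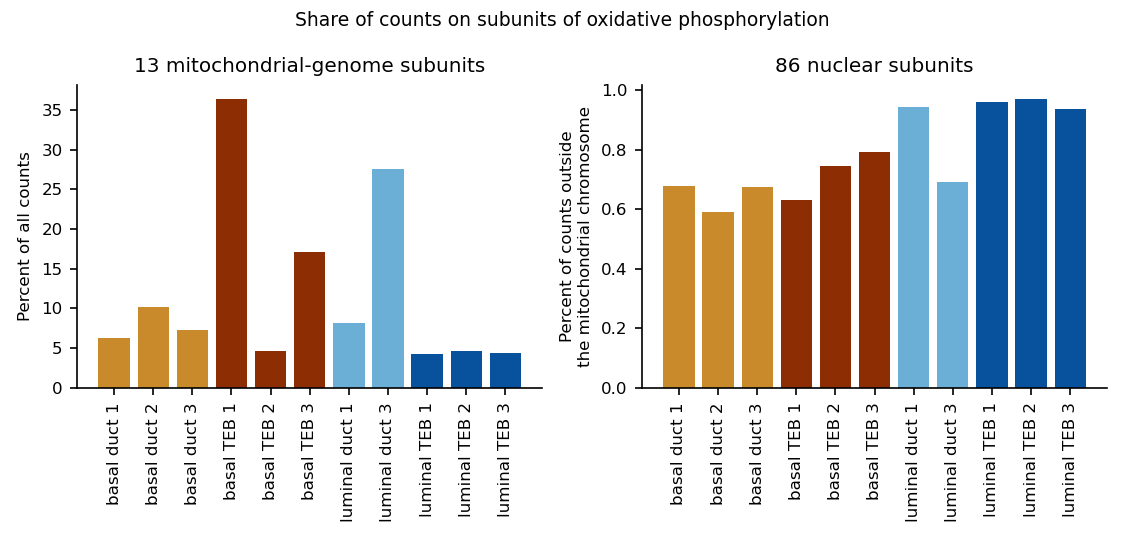
Left, the percentage of all counts on the 13 protein-coding genes of the mitochondrial chromosome in each library. Right, the percentage of counts outside that chromosome on the 86 nuclear subunits, with bars coloured by group. Basal TEB replicates 1 and 3 and luminal duct replicate 3 stand highest on the left (36.4%, 17.2% and 27.5%), and 4 of the 5 luminal libraries lie above every basal library on the right.

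For all 13 genes the highest levels were in basal TEB replicate 1, then luminal duct replicate 3, then basal TEB replicate 3. mt-Co1 (MT:5328-6872 of GRCm38), the catalytic subunit of complex IV and the most abundant member, was at 18453, 32144 and 20521 CPM in basal duct, at 171263, 12134 and 53078 CPM in basal TEB, at 21601 and 93970 CPM in luminal duct and at 10201, 11187 and 10155 CPM in luminal TEB. mt-Cytb (MT:14145-15288), the electron-carrying core of complex III, was at 6990, 11054 and 7605 CPM in basal duct, 62190, 4224 and 19907 CPM in basal TEB, 8989 and 39097 CPM in luminal duct, and 4127, 4319 and 4201 CPM in luminal TEB. For both genes basal TEB replicate 2 was below every duct library, and basal TEB replicate 1 was the highest of the 11. mt-Nd1, mt-Nd2, mt-Nd4 and mt-Nd5, membrane subunits of complex I, ranged over the libraries from 1864 to 35550, from 1351 to 22850, from 2718 to 47020 and from 2241 to 33500 CPM. mt-Nd3, mt-Nd4l and mt-Nd6, shorter subunits of the same complex, ranged from 313 to 5530, from 411.5 to 8120 and from 494 to 7783 CPM. mt-Co2 and mt-Co3 of complex IV ranged from 3781 to 63450 and from 3505 to 63480 CPM, and mt-Atp6 and mt-Atp8 of the ATP synthase from 3442 to 56770 and from 555 to 10690 CPM.

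The proportions of the 13 mRNAs to each other varied far less than their total. Counts of these genes in the comparisons below are therefore not independent results. mt-Co1 took between 27.1% and 30.5% of the counts on the 13 genes, mt-Cytb between 10.2% and 11.7%, and mt-Co3 between 9.80% and 10.9%. For 12 of the 13 genes the highest share was between 1.11 and 1.37 times the lowest. The exception was mt-Nd3, with 0.788% in basal TEB replicate 2 and 1.52% in luminal duct replicate 1, a ratio of 1.93.

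**Figure D2:**
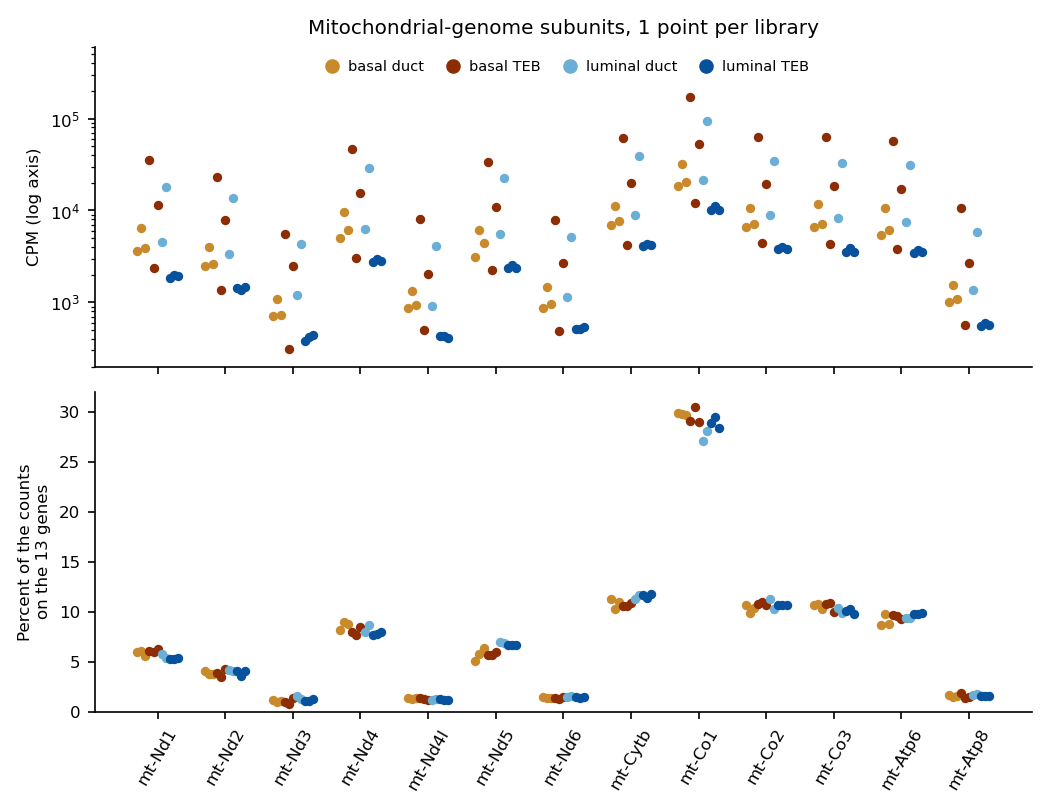
The 13 mitochondrial subunits, with 1 point for each library coloured by group. The upper panel gives CPM on a log axis and the lower panel the percentage of the counts on the 13 genes that each gene took. Levels of a gene spread widely over the libraries, while its percentage changed little (mt-Co1 from 27.1% to 30.5%).

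Some of these genes share sequence on the chromosome. mt-Atp8 and mt-Atp6 overlap by 43 bases on the same strand (chrM:7927-7969 of GRCm38, plus strand), read in 2 frames, and this stretch is shown because reads that fall inside it cannot be given to one of the pair.
mt-Atp8/mt-Atp6 overlap: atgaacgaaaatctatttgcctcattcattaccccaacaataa
mt-Nd4l and mt-Nd4 overlap by 7 bases (MT:10167-10173), and mt-Nd5 and mt-Nd6 by 14 bases on opposite strands (MT:13552-13565). The library kit that the study names does not mark strand, so reads of mt-Nd6, the only one of the 13 encoded on the light strand, cannot be told apart from antisense RNA of the heavy-strand transcript.

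Between TEBs and ducts no mitochondrial subunit was called in either cell type, in comparisons where 1.32% (basal) and 1.41% (luminal) of all genes tested were called. In basal cells the log2 fold changes of the 13 genes ran from 1.66 to 1.94 with a median of 1.76, against -0.03 over all genes, and the lowest FDR was 0.298 (edgeR, 11 of the 13 at an unadjusted p below 0.05). The CPM of basal TEB and basal duct libraries overlapped for all 13 genes. Of all genes tested, 8.88% were higher and 11.9% lower in all basal TEB than in all basal duct libraries. In luminal cells the values ran from -2.73 to -2.45 with a median of -2.55, against 0.04 over all genes, with a lowest FDR of 0.118 (edgeR, 13 of 13 at an unadjusted p below 0.05). All 3 luminal TEB libraries were below both luminal duct libraries for the 13 genes, a separation found in the same direction for 17.4% of all genes tested. The medians moved with single libraries, to 0.51 in basal cells without basal TEB replicate 1 and to -1.19 in luminal cells without luminal duct replicate 3. Without basal TEB replicates 1 and 3 and luminal duct replicate 3 together, they were -1.02 and -1.17. Those 3 libraries were picked for their mitochondrial share, so these last medians only describe the libraries that remain and test nothing. The likelihood ratio test of edgeR called 13 of the 13 genes in luminal cells and the Wald test of DESeq2 called 9.

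Between cell types, the 13 mitochondrial genes were all called higher in basal than in luminal cells of TEBs, where 13.2% of all genes tested were called higher in basal cells. Since the 13 genes varied together, their calls are not 13 separate results. Log2 fold changes ran from 2.68 for mt-Nd5 (SE 0.80, edgeR FDR 0.0270) to 3.09 for mt-Nd1 (SE 0.80, edgeR FDR 0.0138). mt-Co1 had a log2 fold change of 2.91 (SE 0.84, edgeR FDR 0.0242). The groups overlapped for 6 of the 13, for which basal TEB replicate 2 was at or below the highest luminal TEB library. For the other 7 all basal TEB libraries were above all luminal TEB libraries, where 22.6% of all genes tested were. Without basal TEB replicate 1 no gene was called and the median was 1.62. Without luminal TEB replicates 1, 2 or 3 the number called was 0, 1 and 0, with medians between 2.86 and 2.89. By limma voom 3 of the 13 genes were called. The median was 0.09 without the 3 libraries of high mitochondrial share, which again describes the libraries that remain, since basal TEB replicate 2 has a share (4.62%) within the range of luminal TEB. In ducts the median log2 fold change of the 13 genes between basal and luminal cells was -1.41, none was called (lowest edgeR FDR 0.147, and 0 of 13 at an unadjusted p below 0.05), and the median was -0.05 without luminal duct replicate 3. The difference of the TEB change between basal and luminal cells had a median of 4.31 over the 13 genes, with none called (lowest edgeR FDR 0.112, against 0.443% of all genes tested called). The likelihood ratio test of edgeR and DESeq2 called 13 of 13 for this difference, and so did the quasi-likelihood test without basal TEB replicate 2 or without luminal duct replicate 1.

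**Figure D3:**
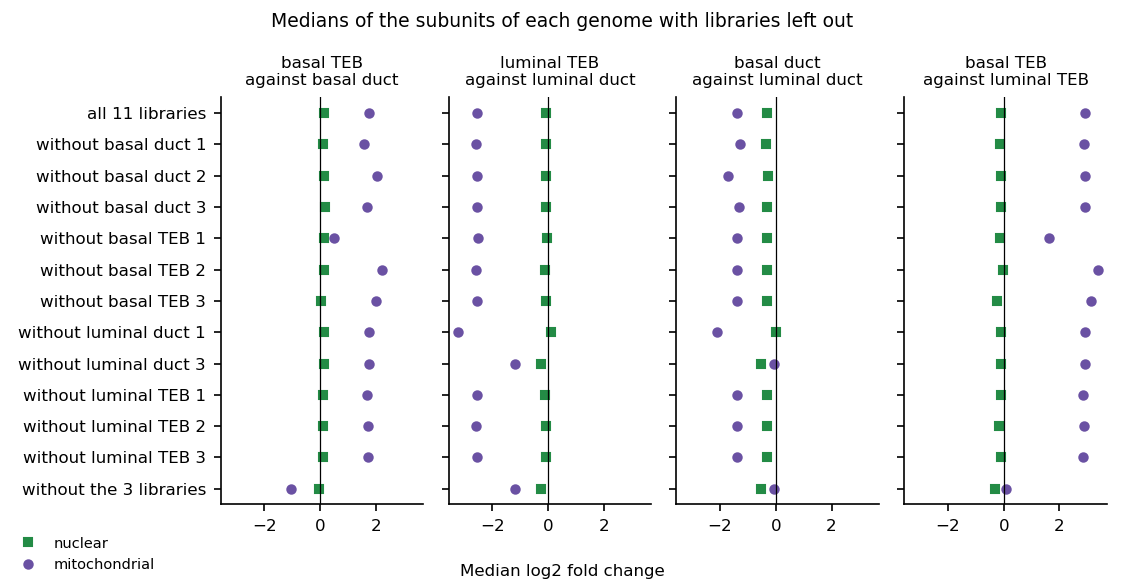
Median log2 fold change of the 82 tested nuclear subunits (squares) and of the 13 mitochondrial subunits (circles) in 4 comparisons, with all 11 libraries, with each left out, and without basal TEB replicates 1 and 3 and luminal duct replicate 3 together. In the comparison of basal and luminal TEB the mitochondrial median was 2.91 with all libraries and 0.09 without the 3 libraries, which were picked for their mitochondrial share, while the nuclear medians of these fits lay between -0.53 and 0.16.

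Set per kilobase of transcript, mitochondrial subunits were far more abundant than their nuclear partners in every library. In complex IV the median mitochondrial subunit was at 54.8, 58.9 and 59.5 times the median nuclear subunit in luminal TEB, and at 140, 148.5 and 254 times in basal duct. The ratio was 948, 74.3 and 315 in basal TEB and 93.6 and 486.5 in luminal duct. In complex I it ran from 26.5 to 429, in complex III from 32.0 to 547 and in complex V from 27.5 to 475. The lowest ratio was in a luminal TEB library and the highest in basal TEB replicate 1 in each of the 4 complexes. The nuclear medians that enter these ratios ran from 44.7 to 62.8 CPM per kilobase in complex I and from 61.1 to 139.9 in complex IV, so most of the spread was on the mitochondrial side. The 17 nuclear genes of complex IV include Cox7a1, Cox6b2, Cox7a2, Cox4i2, Cox8b and Ndufa4l2, with median levels from 0 to 7.8 CPM per kilobase. The complex IV ratios are therefore higher than they would be without these genes.

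The nuclear subunits varied over a narrow range by comparison. As a share of the counts outside the mitochondrial chromosome, they took 0.680%, 0.590% and 0.676% in basal duct and 0.630%, 0.745% and 0.794% in basal TEB. They took 0.944% and 0.690% in luminal duct and 0.961%, 0.971% and 0.937% in luminal TEB. Luminal duct replicate 1 and the 3 luminal TEB libraries were above every basal library, and luminal duct replicate 3 fell within the basal range. With all counts as denominator the shares of basal TEB replicates 1 and 3 and luminal duct replicate 3 were 0.394%, 0.653% and 0.494%, since their mitochondrial counts enlarge the total. The nuclear subunits of ATP synthase held the largest part of these counts. They took 0.296%, 0.222% and 0.279% in basal duct, 0.274%, 0.340% and 0.330% in basal TEB, 0.382% and 0.273% in luminal duct and 0.429%, 0.435% and 0.413% in luminal TEB. For complex II the shares ran from 0.0235% in basal TEB replicate 1 to 0.0497% in luminal TEB replicate 2.

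Of the 86 nuclear subunits 82 passed the filter on low counts. Uqcr11 and Cox8c had no count in any library, and Cox6a2 and Cox7b2 had 15 and 22 counts in all. Atp5b and Atp5a1, the beta and alpha chains of the catalytic head of ATP synthase, were the most abundant, at 515 to 1181 and at 432 to 796 CPM. Sdhd, a membrane anchor of succinate dehydrogenase, had 51 counts in all, although its partners Sdhb and Sdhc were at 51.7 to 94.4 and at 67.1 to 107 CPM. Cox7a2 had 1 count in luminal duct replicate 3 and between 52 and 282 in each of the other libraries. Members of this family have processed pseudogenes, and counts of such near-identical copies are uncertain.

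Between TEBs and ducts no nuclear subunit was called in basal or in luminal cells, against the 1.32% and 1.41% of all genes given above. At an unadjusted p below 0.05 there were 7 of 82 in each, where 2511 (basal) and 2882 (luminal) of all 17370 genes were. In basal cells the median log2 fold change of the nuclear subunits was 0.15, against -0.03 over all genes, with 52 positive and 30 negative. Cox5a, a matrix-side subunit of complex IV (Entrez gene 12858, chromosome 9), came closest to the threshold. It was at 42.5, 33.7 and 41.1 CPM in basal duct and at 67.8, 60.05 and 61.2 CPM in basal TEB, so all TEB libraries were above all duct libraries. Its log2 fold change was 0.69 (SE 0.16, edgeR FDR 0.0704), and it was called by the likelihood ratio test, by DESeq2 and without either luminal duct library. Its adjusted p ranged from 0.00648 to 0.615 among 20 alternative fits in edgeR, limma or DESeq2. Leaving aside subunits whose mean log2 CPM was under 4, the other largest changes were in Atp5e (0.65, the epsilon chain of ATP synthase) and Ndufa3 (0.57), and in Ndufa6 (-0.41), Ndufa1 (-0.39) and Cox7a2l (-0.38). Those of Atp5e and Ndufa3 were -0.02 and -0.13 without the 3 libraries of high mitochondrial share. Of the nuclear subunits, 10 were higher in all basal TEB libraries than in any basal duct library and 2 were lower, where 8.88% and 11.9% of all genes tested were.

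In luminal cells the nuclear median was -0.07, against 0.04 over all genes, with 37 positive and 45 negative. It was 0.12 without luminal duct replicate 1, with 6 subunits called higher and 0 lower in TEBs, and -0.25 without luminal duct replicate 3, with none called. Atp5l, a subunit of the membrane part of ATP synthase, was at 52.2 and 66.1 CPM in luminal duct and at 32.3, 32.5 and 31.8 CPM in luminal TEB. Its log2 fold change was -0.88 (SE 0.25, edgeR FDR 0.103). Ndufa1 (-0.82) and Ndufc1 (-0.80), small membrane subunits of complex I, were the next lowest of the subunits above that level. The highest were Ndufa9 (0.97), Sdha (0.57) and Ndufs8 (0.54). Ndufa9 was at 50.8 and 17.4 CPM in luminal duct and at 65.9, 68.8 and 66.9 CPM in luminal TEB, and its log2 fold change was 0.40 without luminal duct replicate 3 and 1.95 without replicate 1. That of Ndufs8 was 0.038 without replicate 3 and 1.32 without replicate 1, and that of Ndufa1 was -1.26 and -0.18. In total 24 nuclear subunits were lower in all luminal TEB libraries than in either luminal duct library and 11 were higher, where 17.4% and 26.2% of all genes tested were.

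Between basal and luminal cells of ducts, 9 nuclear subunits were called lower in basal cells and 1 was called higher, where 9.71% of all genes tested were called lower and 12.6% higher. The median log2 fold change was -0.32, against 0.08 over all genes, with 60 of 82 negative. Of the 9, 5 belong to ATP synthase (Atp5c1, Atp5h, Atp5j2, Atp5l and Atp5md), 2 to complex I (Ndufa7 and Ndufv3), and 1 each to complex III (Uqcrfs1) and complex IV (Cox5a). Cox5a was at 111 and 93.0 CPM in luminal duct against the 33.7 to 42.5 CPM of basal duct, a log2 fold change of -1.38 (SE 0.18, edgeR FDR 0.000149), and it was called in all 20 alternatives. Uqcrfs1 (Entrez gene 66694, chromosome 13), the Rieske iron-sulfur protein that hands electrons to cytochrome c1, was at 66.3, 57.4 and 60.9 CPM in basal duct and at 174 and 90.7 CPM in luminal duct. Its log2 fold change was -1.11 (SE 0.26, edgeR FDR 0.00929), and it was -0.56 and not called without luminal duct replicate 1. Ndufa7 was at 41.9, 50.8 and 43.6 CPM in basal duct and at 152 and 79.0 CPM in luminal duct, with a log2 fold change of -1.35 (SE 0.33, edgeR FDR 0.0111).
In the ATP synthase, Atp5h, a subunit of the peripheral stalk, was at 74.9, 79.4 and 71.4 CPM in basal duct and at 143 and 137 CPM in luminal duct, with a log2 fold change of -0.89 (SE 0.18, edgeR FDR 0.00333). Atp5c1, the central rotating gamma chain, was at 141, 148 and 143 CPM and at 243 and 179 CPM, with a log2 fold change of -0.55 (SE 0.17, edgeR FDR 0.0339). Atp5l (-0.99), Atp5md (-0.88) and Atp5j2 (-0.81), small subunits of the membrane part, and Ndufv3 (-1.17) were also called. All basal duct libraries were below both luminal duct libraries for each of the 9, which were picked as called lower in this same comparison. Of all 82 nuclear subunits tested, 34 were lower in every basal duct library than in both luminal duct libraries (41.5%) and 4 were higher (4.88%). Of all genes tested, 21.2% were lower and 24.8% higher in this way. Ndufa11, a membrane subunit of complex I, was the single subunit called higher in basal duct, at 60.3, 70.4 and 48.6 CPM against 38.5 and 31.8 CPM in luminal duct (log2 fold change 0.77, SE 0.24, edgeR FDR 0.0380). Of 20 alternative fits the call of Ndufa11 was lost in 11. The duct calls of Atp5j2, Atp5md, Ndufv3, Atp5l and Atp5h were lost in 10, 9, 4, 2 and 1. Among the pseudogenes Ndufs5-ps was called lower (log2 fold change -1.28), and counts that it shares with Ndufs5 cannot be assigned to one of the pair.
The number called in ducts rested on which luminal duct library was used. A group left with 1 library is assumed to vary like the other groups. With replicate 1 alone it was 13 lower and 0 higher, and with replicate 3 alone it was 3 lower and 5 higher. Without basal TEB replicate 1 it was 16 lower and 1 higher, and without any 1 of the luminal TEB libraries 6 lower and 0 higher. It was 28 lower and 0 higher without the 3 libraries of high mitochondrial share.

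**Figure D4:**
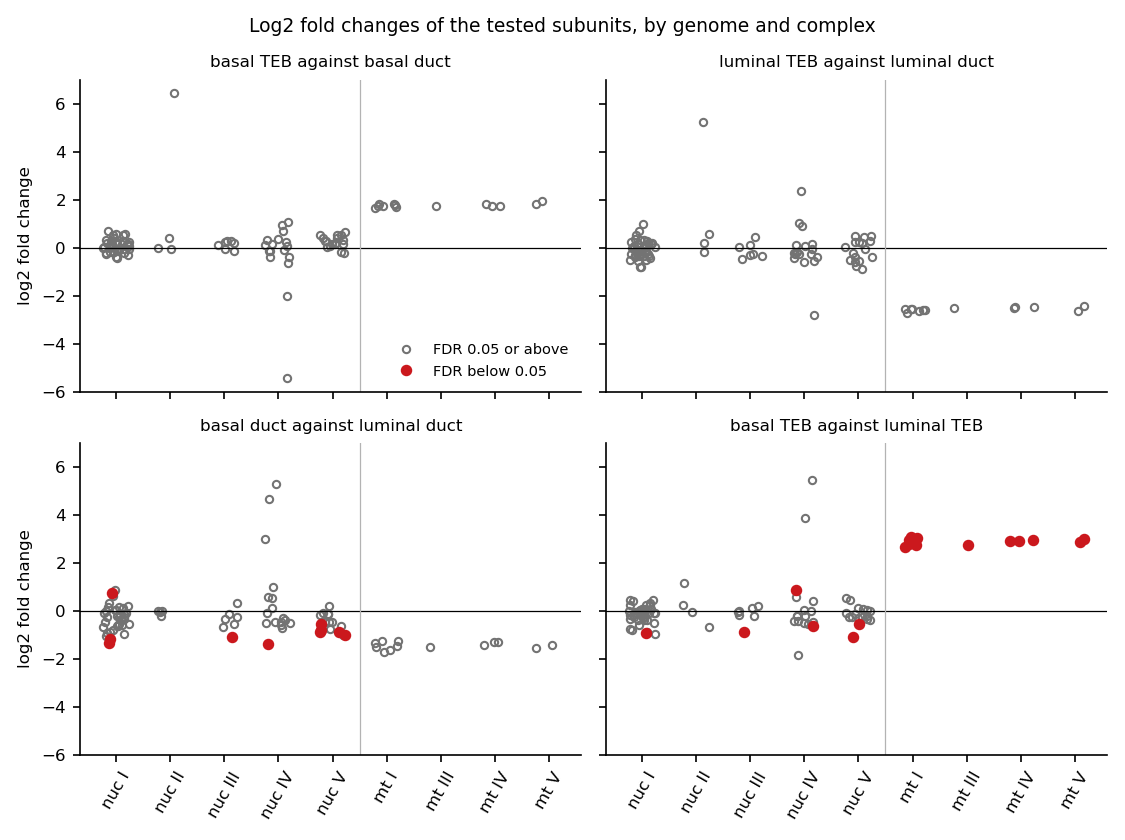
Log2 fold change of every tested protein-coding subunit in 4 comparisons, by genome (nuc, nuclear; mt, mitochondrial) and complex. Filled points passed an FDR of 0.05 and open points did not. The mitochondrial points lie in tight groups away from most nuclear points of the same complex. In the comparison of basal and luminal duct, nuclear Cox5a (-1.38) and Ndufa7 (-1.35) lie within the mitochondrial range (-1.71 to -1.26). Mitochondrial points are called only in the comparison of basal and luminal TEB. Points far from 0 in nuclear complexes II and IV include genes with few counts, such as Sdhd and Cox4i2.

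In TEBs, 5 nuclear subunits were called lower in basal than in luminal cells and 1 was called higher, where 11.8% and 13.2% of all genes tested were. The median was -0.11, against 0.04 over all genes, and 54 of 82 were negative. In every basal TEB library 26 were lower than in all luminal TEB libraries and 3 were higher. Of all genes tested, 27.2% were lower and 22.6% higher in this way. Cox5a (60.05 to 67.8 CPM in basal TEB and 105, 95.1 and 94.2 CPM in luminal TEB) had a log2 fold change of -0.64 (SE 0.16, edgeR FDR 0.0115). Uqcrfs1 was at 55.5, 79.4 and 86.1 CPM in basal TEB and at 148, 129 and 133 CPM in luminal TEB (log2 fold change -0.89, SE 0.24, edgeR FDR 0.0163). Atp5c1 was at 168, 158 and 175 CPM and at 236, 255 and 247 CPM (log2 fold change -0.56, SE 0.15, edgeR FDR 0.0179). Ndufa7 was at 65.8, 36.6 and 33.8 CPM and at 106, 72.7 and 77.1 CPM (log2 fold change -0.91, SE 0.30, edgeR FDR 0.0442). These 4 genes were called lower in basal cells of both structures. Of 20 alternative fits the duct call was lost in 0 for Cox5a, 1 for Ndufa7, 2 for Uqcrfs1 and 10 for Atp5c1, and the TEB call in 1, 8, 2 and 2. Without luminal duct replicate 1 the log2 fold changes in ducts of Ndufa7 and Atp5c1 were -0.80 and -0.32, and neither was called. Atp5d, the delta chain at the foot of the central stalk, was at 36.3, 59.3 and 32.8 CPM in basal TEB and at 95.9, 90.2 and 86.1 CPM in luminal TEB, with a log2 fold change of -1.08 (SE 0.37, edgeR FDR 0.0485). The call of Atp5d was lost in 10 of 20 alternative fits. In luminal duct Atp5d was at 99.6 CPM in replicate 1 and 32.2 CPM in replicate 3. Cox6c, a small subunit of complex IV, was the 1 gene called higher in basal TEB, at 109, 61.3 and 98.5 CPM against 50.8, 50.6 and 47.2 CPM in luminal TEB (log2 fold change 0.85, SE 0.22, edgeR FDR 0.0147). Its log2 fold change was 0.30 without the 3 libraries of high mitochondrial share, and the gene was then not called. It was also not called without basal TEB replicate 1, basal TEB replicate 3 or luminal TEB replicate 3.

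**Figure D5:**
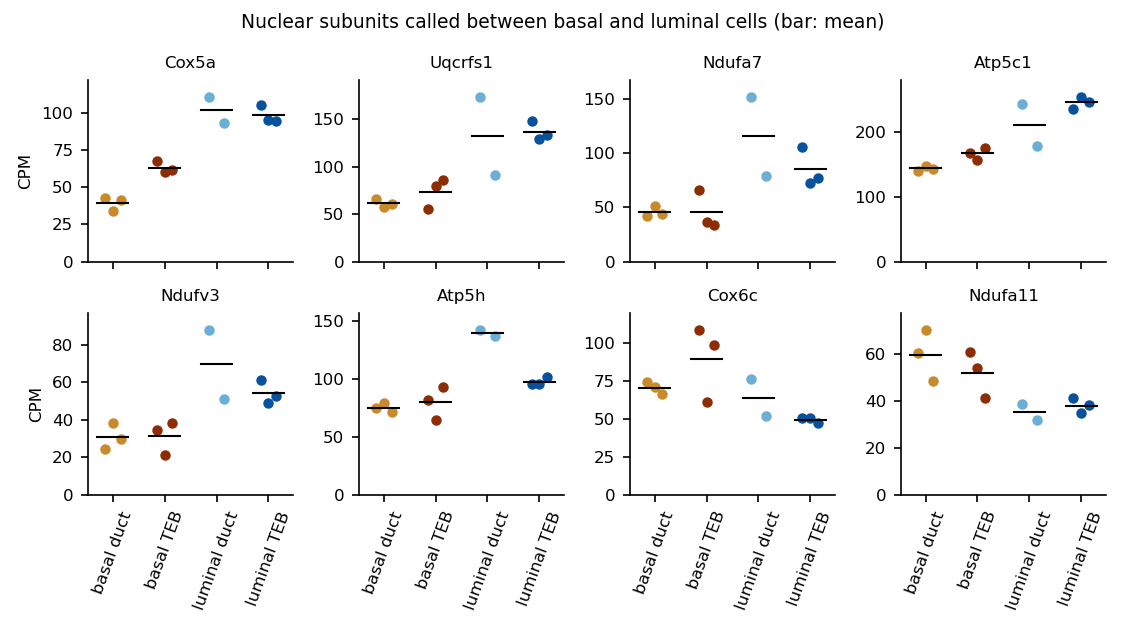
CPM of 8 nuclear subunits called between basal and luminal cells of ducts or of TEBs, with 1 point for each library and a bar at the group mean. Cox5a separates basal from luminal libraries in both structures, with 33.7 to 67.8 CPM in basal cells and 93.0 to 111 CPM in luminal cells.

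Few of the nuclear core subunits described here were called. Ndufs1, Ndufs3, Ndufv1 and Ndufv2, which hold the iron-sulfur clusters or flavin of complex I or neighbour them, were not called in any comparison. Ndufv1 was at 62.4 to 77.5 CPM in basal and at 74.8 to 83.6 CPM in luminal libraries. Sdha, the flavoprotein of complex II, was at 75.8, 155 and 194 CPM in basal TEB and at 224, 228 and 224 CPM in luminal TEB, with a log2 fold change of -0.67 (SE 0.27, edgeR FDR 0.0903). Cox5b, the partner of Cox5a in complex IV, was at 48.3 to 79.6 CPM and was not called. Uqcrc1 and Uqcrc2, the core proteins of complex III, were at 112 to 174 and at 126 to 180 CPM with no call. Cox4i1, the common form of complex IV subunit 4, was at 219 to 223 CPM in basal duct and at 378 and 252 CPM in luminal duct (log2 fold change -0.51, SE 0.19, edgeR FDR 0.0714).
Of the subunits with tissue forms, Cox6a1, Cox6b1 and Cox8a, the widely expressed forms, were at 86.4 to 177, 71.2 to 138 and 112 to 204 CPM, whereas their counterparts of muscle, heart or testis Cox6a2, Cox6b2, Cox8b and Cox8c reached 8.07 CPM at most. For subunit 7a both forms had few counts, with Cox7a1, the heart and muscle form, at 0 to 5.50 CPM and Cox7a2, the widely expressed form, at 0.0411 to 16.3 CPM. Cox7a2l, a related protein that takes part in joining complexes III and IV, was at 103 to 234 CPM. Cox4i2, the form known from lung and vessel walls, was at 8.16 CPM in basal duct replicate 2 and at 0.751 CPM or less in each of the other libraries. That library was also the one with the most endothelial marker counts, and their part in this value was not tested. Ndufa4 was at 61.5 to 161 CPM, and its relative Ndufa4l2, known as a hypoxia-response gene, at 0.921 CPM or less.

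For the difference of the TEB change between cell types, no nuclear subunit was called, where 0.443% of all genes tested were. The lowest FDR was that of Atp5e (1.20, SE 0.37, edgeR FDR 0.179). Among protein-coding subunits whose mean log2 CPM reached 4, Atp5k (1.13) and Atp5md (0.93) came next in size, and the most negative values were those of Ndufa9 (-1.02), Ndufs8 (-0.76) and Sdha (-0.64). At an unadjusted p below 0.05 there were 6 of 82, where 2559 of all 17370 genes were. That of Cox5a was 0.74 (SE 0.24, edgeR FDR 0.200).

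Promoters are shown for 4 of the nuclear subunits that were called lower in basal cells, in both structures (Cox5a, Uqcrfs1 and Atp5c1) or in ducts (Atp5h). Each is the 150 bases before a RefSeq start of the gene on its own strand, from the GRCm38.p6 assembly. In the same order they lie at chr9:57521082-57521231 (plus strand), chr13:30545317-30545466 (minus), chr2:10080433-10080582 (minus) and chr11:115419920-115420069 (minus). The stretch shown for Cox5a lies inside the annotated gene (chr9:57517328-57532427), not before its first base. Capitals mark matches to 2 sets of letters, that of NRF1 (nuclear respiratory factor 1, a known activator of respiratory genes), which is GCGCA and GCGC with any 1 base between them, and that of ETS factors such as Gabpa, CCGGAAGT, each on either strand.
Cox5a: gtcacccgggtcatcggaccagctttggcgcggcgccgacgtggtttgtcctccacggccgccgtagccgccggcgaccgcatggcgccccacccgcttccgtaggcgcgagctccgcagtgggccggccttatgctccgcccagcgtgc
Uqcrfs1: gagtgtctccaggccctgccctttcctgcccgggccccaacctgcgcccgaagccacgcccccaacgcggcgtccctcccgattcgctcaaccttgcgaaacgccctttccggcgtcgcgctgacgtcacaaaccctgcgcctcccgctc
Atp5c1: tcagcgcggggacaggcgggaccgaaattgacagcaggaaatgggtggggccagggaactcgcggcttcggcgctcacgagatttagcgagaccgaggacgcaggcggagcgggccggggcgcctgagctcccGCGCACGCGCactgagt
Atp5h: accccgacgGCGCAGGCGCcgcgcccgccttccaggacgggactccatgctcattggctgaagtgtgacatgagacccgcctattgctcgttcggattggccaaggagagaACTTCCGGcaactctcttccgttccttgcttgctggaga
Atp5c1 has another annotated start, and the one shown is the one with a match. For Cox5a and Atp5h, the bases just after the RefSeq start used were not found near the beginning of any GENCODE transcript of the gene. The NRF1 letters were present in the 250 bases before a start in 13 of the 69 nuclear subunits with a promoter in the RefSeq table (18.8%), against 4.23% of all 27025 genes there. They were present in Atp5c1, Atp5h and Ndufa11 among the called subunits, and in 10 others that were not called, among them Sdha, Cox6a1 and Ndufa5. Of the 3 called, Atp5c1 and Atp5h were lower and Ndufa11 was higher in basal than in luminal duct. For the ETS letters the shares were 4.35% and 3.23%, for TCAAGGTCA, bound by estrogen-related receptors, 1.45% and 0.422%, and for AAGATGGC, of the factor YY1, 1.45% and 1.83%. None of the 4 sets of letters was found in the 150 bases shown for Cox5a or Uqcrfs1. The same held before each start of subunits called lower but not shown. These were Ndufa7 (both structures), Atp5j2, Atp5l, Atp5md and Ndufv3 (ducts) and Atp5d (TEBs).

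Genes that serve the 5 complexes without being among their subunits were counted from lists. As above, 12.6% and 9.71% of all genes tested were called higher and lower in basal cells of ducts, and 13.2% and 11.8% in TEBs. Of 15 tested electron carriers and their partners 5 were called in ducts, with Cyc1 (-0.71, cytochrome c1), Etfa (-0.68) and Coq5 (-1.19, ubiquinone synthesis) among the 4 lower and Etfdh (1.34, which passes electrons of fatty acid oxidation to ubiquinone) higher in basal cells, and none in TEBs (lowest edgeR FDR 0.135, with 1 at an unadjusted p below 0.05). Etfdh was at 125, 123 and 121 CPM in basal duct and at 45.3 and 51.6 CPM in luminal duct. Of 39 assembly factors 1 was called lower and 0 higher in basal duct, and 2 lower and 3 higher in basal TEB. Cox17, the copper chaperone of complex IV, was lower in basal cells of ducts (-1.40) and of TEBs (-1.23). Cox20 (1.03), Cox10 (1.53) and Ndufaf4 (1.21) were the 3 called higher in basal TEB. Of 78 mitochondrial ribosomal proteins 11 were called lower and 0 higher in basal duct, and 3 lower and 2 higher in basal TEB. Of 30 genes for transcription, processing and copying of mitochondrial DNA, Rexo2, an exonuclease of short RNAs, was called higher in basal cells of both structures (0.87 and 1.18), Hsd17b10 (0.78) higher and Slirp (-0.997) and Twnk (-0.87) lower in ducts. Slirp, which stabilises mitochondrial mRNAs, was at 24.4, 18.2 and 32.3 CPM in basal TEB and at 18.1, 19.1 and 18.4 CPM in luminal TEB, and was not called there.
Of 15 regulators of mitochondrial biogenesis, Esrrb, an estrogen-related receptor, was at 72.0 and 11.9 CPM in luminal duct and at 32.9, 2.48 and 15.7 CPM in luminal TEB, and at 0.295 CPM or less in all 6 basal libraries. Esrra, its relative and a known activator of subunit genes, was at 10.97, 25.3 and 17.9 CPM in basal TEB and at 41.5, 36.7 and 38.0 CPM in luminal TEB (-1.10, SE 0.29, edgeR FDR 0.0157). Perm1 (-2.22) was called lower and Gabpa (0.81) and Sirt1 (1.82) higher in basal duct. Of 6 carriers of ADP, phosphate and protons 2 were called higher in basal cells of ducts and 3 in TEBs, with 0 lower. Slc25a4, an exchanger of ADP and ATP, and Ucp2 were called in both structures. Ucp1, also 1 of the adipocyte markers, was called in TEBs (4.86, edgeR FDR 0.0436), at 5.31, 1.01 and 3.70 CPM in basal TEB. Slc25a4 was at 346 to 398 CPM in basal duct and 325 to 451 CPM in basal TEB, against 88.7 to 149.6 CPM in luminal libraries (log2 fold changes 1.62 in ducts and 1.54 in TEBs).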

How the data were processed

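The deposited tables hold raw read counts per gene for 11 libraries. The labels give polyA RNA as the material. Per the study's methods, the authors used a TruSeq RNA kit, which does not mark strand, aligned the paired reads and counted them over the built-in mouse RefSeq genes (mm10) with Rsubread, and 1 luminal duct sample was discarded for low cell numbers. All 11 library tables equalled their column of the series table, and 0 columns of per-sample values were left unused. The replicate numbers of the labels were not taken as pairs.

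Symbols were matched by Entrez gene ID to RefSeq. Nuclear members had symbols beginning with Nduf (a, b, c, s or v), Sdh, Uqcr, Cox4 to Cox8 or Atp5, and 1 further protein-coding gene of that pattern (Ndufb1) was not counted in the tables. Low counts were removed by filterByExpr (min.count of 10, min.total.count of 15), library sizes were scaled by TMM, and 1 model over the 4 groups was fitted in edgeR 4.0.16 (R 4.3.3) with the quasi-likelihood test, used in place of the likelihood ratio fit of the study. The SE of a log2 fold change is its size divided by the square root of F. Depth was 27989137 to 49221436 counts per library, and the common BCV was 0.704. CPM per kilobase used the lengths in the tables. The test script was checked on simulated counts with less spread than the data, which checks the code and not how the test behaves here.

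Genes were named by rule: all mitochondrial members, the core and isoform subunits, every member called (at most 10 per direction), the 3 largest changes each way where the mean log2 CPM reached 4, and up to 4 genes per list. A core subunit that the rule names is not reported here. Members and lists were chosen with earlier results of these data known. The alternatives were DESeq2 (1.42.0) size factors or its Wald test, library size alone, no filter, mitochondrial genes removed, the likelihood ratio test, limma (3.58.1) voom, a replicate block, each library left out, and 3 libraries left out together.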

Additional observations from a re-analysis of the deposited data

How the results depend on the processing

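The number of nuclear subunits called was 0 in both comparisons of TEBs with ducts, 10 between the cell types in ducts and 6 in TEBs. For the mitochondrial subunits it was 13 between the cell types in TEBs and 0 elsewhere. With each library left out in turn, nuclear calls ran from 0 to 1 (basal TEB against duct), 0 to 6 (luminal TEB against duct), 6 to 17 (basal against luminal duct), 2 to 11 (basal against luminal TEB) and 0 to 3 (difference of the TEB change), and mitochondrial calls from 0 to 1, 0 to 3, 0 to 1, 0 to 13 and 0 to 13. The 6 in luminal cells, without luminal duct replicate 1, were all higher in TEBs. The likelihood ratio test and the Wald test of DESeq2 each called 1 nuclear subunit between TEBs and ducts in basal and 1 in luminal cells, and 13 and 9 mitochondrial genes in luminal cells and 13 and 13 for the difference of the TEB change, where no filter gave 1. In ducts nuclear calls were 2 by library size alone, 17 by DESeq2, 18 by voom and 5 with the replicate block. In TEBs nuclear calls were 10 by library size alone, and mitochondrial calls 3 by voom and 3 with the replicate block. Of same-numbered pairs 4 of 15 had a correlation of deviations above 0.1 (-0.0677 to 0.163), against 2 of 30 of the others. Since not all 15 did, the numbers were not taken to pair the samples, although a weak pairing is possible. Library size alone moved the median of all genes in TEBs between the cell types from 0.04 to -0.35, and Atp5e there to -0.068.

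Without basal TEB replicates 1 and 3 and luminal duct replicate 3 nuclear calls were 28 in ducts, 11 in TEBs and 1 in luminal TEB against duct, and mitochondrial calls 2 in luminal TEB against duct and 0 between the cell types in TEBs. These libraries were picked for their mitochondrial share, so the mitochondrial values here describe the libraries that remain. The sign then turned in basal TEB against duct for mt-Nd1 (-0.97), mt-Nd2 (-1.14), mt-Nd3 (-1.42), mt-Nd4 (-1.16), mt-Nd4l (-1.06), mt-Nd5 (-1.02), mt-Nd6 (-1.15), mt-Cytb (-1.01), mt-Co1 (-0.96), mt-Co2 (-0.88), mt-Co3 (-0.95), mt-Atp6 (-0.93), mt-Atp8 (-1.10), Ndufa3 (-0.13) and Atp5e (-0.024). It turned in basal against luminal duct for mt-Nd1 (0.030), mt-Nd4 (0.12), mt-Nd4l (0.18), mt-Co1 (0.13) and mt-Co3 (0.024). It turned in basal against luminal TEB for mt-Nd2 (-0.050), mt-Nd3 (-0.41), mt-Nd5 (-0.12), mt-Nd6 (-0.088), mt-Cytb (-0.0030), mt-Atp8 (-0.031), Atp5e (-0.23) and Atp5k (-0.58), and for the difference of the TEB change in mt-Nd4 (-0.0099), mt-Nd6 (-0.037) and Atp5k (-0.50). With single libraries left out, Ndufa6 in basal TEB against duct ran from -0.71 to 0.030, and in basal against luminal duct mt-Nd1 ran from -1.94 to 0.029, mt-Nd4 from -2.06 to 0.12, mt-Nd4l from -1.97 to 0.18, mt-Co1 from -1.99 to 0.13 and mt-Co3 from -1.97 to 0.023. The cause of these changes was not tested.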

Other observations

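Genes of glycolysis, the other main source of ATP, differed between basal and luminal cells in both directions. Of 20 tested, 3 were called higher and 6 lower in basal than in luminal duct, and 2 higher and 6 lower in TEBs (edgeR, FDR below 0.05, where 12.6% and 9.71% of all genes tested were called higher and lower in ducts and 13.2% and 11.8% in TEBs). Hk1, a hexokinase that binds the outer mitochondrial membrane, was at 61.8 to 94.3 CPM in basal and at 164 to 201 CPM in luminal libraries. Tpi1, triosephosphate isomerase, was at 91.2 to 110 CPM in basal and at 236 to 568 CPM in luminal libraries. Ldhb, a lactate dehydrogenase chain, was at 66.9 to 80.1 CPM in basal duct, 21.6 to 61.1 CPM in basal TEB and 8.44 CPM or less in luminal libraries. Pfkp, a phosphofructokinase, was at 110 to 180 CPM in basal duct and at 63.1 CPM or less in basal TEB (log2 fold change -1.41, SE 0.29, edgeR FDR 0.0389), and was the 1 gene of the list called between TEBs and ducts.

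Of 17 genes of the tricarboxylic acid cycle, which feeds electrons to complexes I and II, Sucla2 was called higher in basal than in luminal duct (log2 fold change 0.88) and Ogdh lower in basal than in luminal TEB (-0.56). Of 25 genes of mitochondrial import and the outer membrane, Timm8b was called lower in basal duct (-1.16) and Hspe1, the mitochondrial co-chaperonin, higher in basal TEB (1.18), at 157, 116 and 213 CPM against 74.5, 66.6 and 73.8 CPM in luminal TEB. Of 83 cytosolic ribosomal proteins 19 were called higher and 0 lower in basal than in luminal TEB, where 13.2% and 11.8% of all genes tested were. Rpl38, among those with the lowest FDR, was at 163, 42.2 and 92.0 CPM in basal TEB and at 38.9, 31.6 and 32.8 CPM in luminal TEB, so that it was highest in basal TEB replicates 1 and 3, the libraries of that group with the higher mitochondrial share. The part of that share in these calls was not tested.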
